A study of Homo sapiens with 18 samples.

Results

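The change in RNA that DAOY and U87 mg spheroidal aggregates shared after 2 h of a direct-current electric field was measured in 12 of the 18 samples of the study. The compared groups were DAOY at 0 h, DAOY at 2 h, U87 mg at 0 h and U87 mg at 2 h, with 3 samples each. The 6 remaining samples, at 8 h, entered only the alternative fit of all 18 samples and are otherwise given as levels. DAOY is an established line from a desmoplastic cerebellar medulloblastoma and U87 mg an established line labelled as glioblastoma. The cells of all 4 groups were grown as aggregates, embedded in a gel of equal parts of medium and growth-factor-reduced Matrigel and left to settle in electrotaxis channels for a day. The 2 h groups were then held under a continuous field of 250 V/m, while the 0 h groups were taken without any exposure, and the material of 3 channels was pooled into each sample. Aggregates kept in the channel for 2 h without the field form no group of these samples, and the effect of the field therefore cannot be told apart from that of the extra time. The 12 samples were chosen by cell line and time as the labels give them. Estimated counts were summed over all transcripts that share a gene name, which gave 32472 names, of which 16003 had enough counts to be tested.

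Cells that meet a new stimulus first transcribe immediate early genes, whose promoters are already loaded with serum response factor, its ternary complex partners or CREB and need no newly made protein. Many of these genes encode transcription factors, such as the FOS, JUN, EGR and NR4A families, and others encode proteins that dampen the kinase pathway which switched them on. Messages of this class are short-lived, so their levels also follow the proteins that bring about their decay.

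Total estimated counts lay between 8341976 and 15610886 per sample. The libraries of one group differed by far more than sampling noise, so none was taken as a repeat of another. DAOY at 0 h was the most scattered group, and its replicate 0 lay farthest from its group mean (root mean square deviation 0.446 on the log2 scale, against 0.193 to 0.366 in the other 11 libraries). Levels in TPM, a unit scaled to transcript length and library size, of the mesenchymal and glial markers VIM, CD44 and FN1 were high in both lines at 0 h. VIM was at 1977 to 2970.3 TPM in DAOY and 4332 to 5341 TPM in U87 mg, CD44 at 885 to 1533 and 3005 to 3320.0 TPM, and FN1, with the order of the lines turned, at 3673 to 8454 and 916 to 1515 TPM. The defining astroglial markers GFAP, OLIG2, S100B and AQP4 stayed at or below 3.11 TPM in the 0 h samples of both lines. Of the medulloblastoma markers, OTX2 reached 1.80 to 2.08 TPM in DAOY at 0 h and was at 0 in U87 mg, NEUROD1 was at or below 0.105 TPM in both lines, and ATOH1 was not analysed here. Others were higher in U87 mg, with GLI1 at 2.44 to 7.20 TPM against 0 to 0.561 TPM in DAOY and TUBB3 at 17.4 to 54.6 against 6.38 to 16.8 TPM, and ZIC1 overlapped between the lines. PTCH1, MYCN and SYP were higher in DAOY at 0 h, at 8.92 to 10.9, 0.434 to 1.075 and 1.35 to 3.45 TPM. In U87 mg they were at 2.62 to 4.98, 0 and 1.05 to 1.28 TPM. Of the glial list, SOX2 was higher in DAOY (3.29 to 5.46 against at most 0.0555 TPM). NES was higher in U87 mg (6.69 to 8.54 against 0.505 to 0.588 TPM). The endothelial markers CDH5 and VWF and the leukocyte markers PTPRC and CD3E stayed below 0.72 TPM at 0 h, whereas the fibroblast marker COL1A1 reached 246 to 732 TPM in DAOY. The macrophage-associated CD68 was at 23.0 to 41.8 TPM in DAOY and 247 to 602 TPM in U87 mg at 0 h, and the endothelial PECAM1 at 5.46 to 9.08 and 1.09 to 2.30 TPM. The summed fibroblast markers overlapped between 0 h and 2 h in both lines (736 to 967 and 769.8 to 1167 TPM in DAOY, 81.0 to 174 and 64.2 to 127 TPM in U87 mg).

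No gene passed a false discovery rate of 0.05 for a 2 h change common to both lines. The comparison asked which genes moved in the same direction in both lines, with one 2 h coefficient, cell line as an additive term and the error pooled over the 12 samples. With p-values adjusted by the Benjamini-Hochberg method, edgeR's quasi-likelihood test called 0 of 16003 genes (0%), with or without the additional demand of a 2-fold change (0%). At an unadjusted p under 0.05 stood 401 genes (2.51%), of which 164 were higher (1.02%) and 237 lower (1.48%) at 2 h. That share is below the 5% that a test at this level returns where nothing differs. DESeq2 called 9 genes, edgeR without a filter on low counts 18 and limma with voom weights 0. The smallest adjusted p was that of EGR1, and only 3 genes had an adjusted p under 0.25. In bulk RNA, fewer cells of one kind and less RNA per cell cannot be told apart, which holds for every value that follows.

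Fitted separately, 10163 genes were counted as opposite in sign in DAOY and U87 mg, 2775 (17.3%) were higher in both lines and 3065 (19.2%) lower in both. A log2 change of 0 in either line, as in U87 mg for FOXF2, was also counted as opposite, here and in the lists. The median change over all genes was -0.0061 on the log2 scale, with 10% of genes below -0.29 and 10% above 0.21. A difference of the 2 h change between the lines was tested as an interaction and passed in 0 genes (0%), with the smallest adjusted p at 0.693, and 744 genes (4.65%) had an unadjusted p under 0.05. DESeq2 called 1 gene in that test and edgeR without the filter called 6. As a plainer measure, counts scaled to library size (CPM) were compared sample by sample. The 3 samples at 2 h lay above all 3 samples at 0 h in DAOY and also in U87 mg for 31 genes (0.194%), and below them in both lines for 45 genes (0.281%). Groups of 3 also separate in some genes where nothing differs, and that share was not computed. A lack of overlap, here and below, therefore does not by itself mark a changed gene. Of the 31 genes, 27 are protein coding, with a median log2 change of 0.39. Of the 45 genes, 36 are protein coding, and the median size of their change was 0.58. The genes described next are the 10 with the smallest p in each direction among those with the same sign in both lines, and none of them passed the adjusted threshold.

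**Figure D1:**
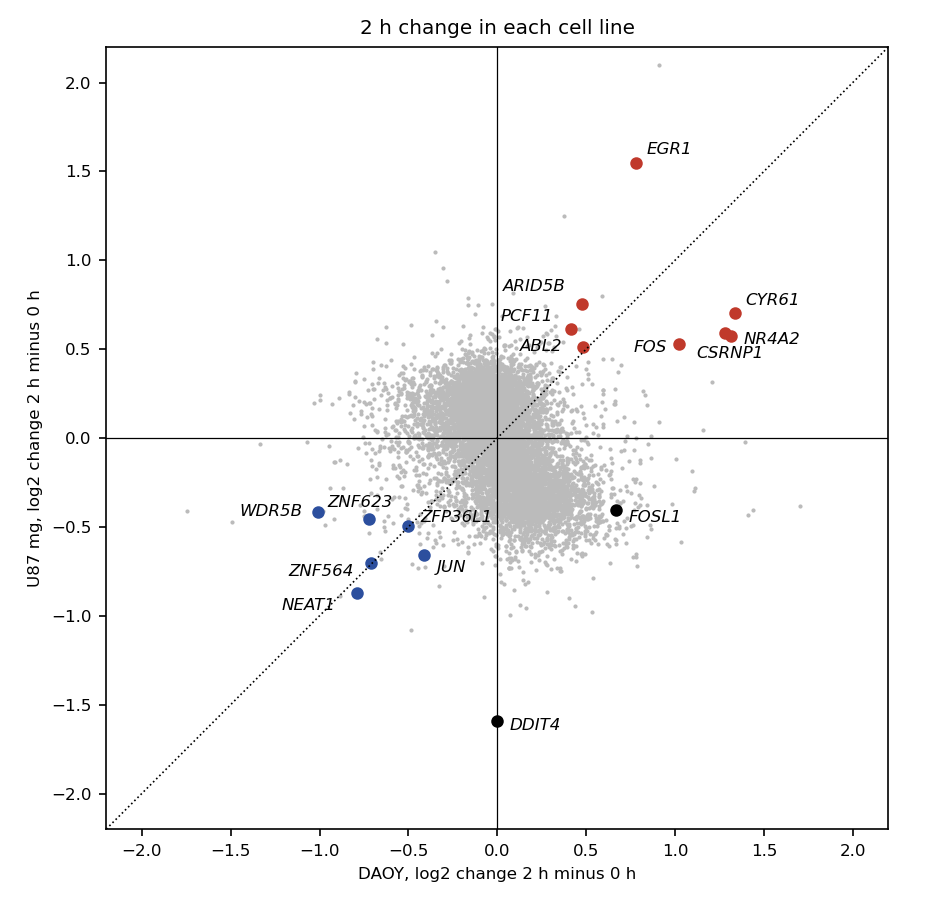
The log2 change from 0 h to 2 h in DAOY (horizontal axis) is plotted against that in U87 mg (vertical axis) for 9821 genes with a mean of at least 5 CPM in each line (grey points, 4 genes lie outside the axes). Labelled genes in red were higher and in blue lower in both lines, black marks genes that moved in 1 line or in opposite directions, and the dotted line is equal change. Most grey points lie off the dotted line, while EGR1, CYR61 and CSRNP1 stand apart at the upper right, where NR4A2 lies too. Labelled genes were drawn without the 5 CPM minimum. NR4A2, FOS and ZNF564 fall below it in U87 mg, so the grey points are no yardstick for them.

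EGR1, a zinc finger transcription factor and a classic immediate early gene (ENSG00000120738, chromosome 5, 138465490 to 138469315, plus strand, GRCh38), led the comparison. In DAOY its level was 100, 105 and 96.2 CPM at 0 h and 132, 220 and 166 CPM at 2 h. In U87 mg it was 26.4, 23.3 and 29.7 CPM at 0 h and 78.5, 84.7 and 69.0 CPM at 2 h. Every 2 h sample was above every 0 h sample of its own line, although the U87 mg samples at 2 h did not reach the DAOY samples at 0 h. The common log2 change was 1.16 ± 0.16 (SE, 2.23-fold, edgeR quasi-likelihood adjusted p = 0.0655, higher in 6 of 6 samples at 2 h). It was 0.78 ± 0.17 in DAOY and 1.55 ± 0.18 in U87 mg, and the test of that difference gave an unadjusted p of 0.00844 and an adjusted p of 0.693. Over the 12 fits that each left out 1 library, its adjusted p lay between 0.0054 and 0.426 and passed in 1 of them. Leaving out DAOY 2 h replicate 0, whose 2 h level was the lowest of its group, gave the lowest of these, 0.0054, and without the most scattered library, DAOY 0 h replicate 0, it was 0.0935. At 8 h, as levels with no test, EGR1 stood at 122, 284 and 259 CPM in DAOY and at 93.0, 27.8 and 122 CPM in U87 mg.

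The bases before the EGR1 start are shown because 2 CArG boxes, the element that serum response factor binds, lie there. The sequences come from RefSeq on GRCh38.p14, where windows of 250 bases before to 50 after the start were searched on both strands for the CArG box, the CREB element TGACGTCA, the AP-1 element TGACTCA, the TEAD element GGAATG, the E box CACGTG, the hypoxia element core ACGTG (found inside any CACGTG) and the GC box GGGCGG. Of the 20 named genes, 14 had a window. The strands below are those of the genes, for chr5:138465229-138465478 (EGR1, plus strand), chr16:24539316-24539565 (RBBP6, plus strand) and chr4:54064606-54064855 (CHIC2, minus strand), and capitals mark matches to any of these motifs but GGGCGG. RBBP6 and CHIC2, described further on, are set beside EGR1 as members of the same direction that hold other motifs.
EGR1: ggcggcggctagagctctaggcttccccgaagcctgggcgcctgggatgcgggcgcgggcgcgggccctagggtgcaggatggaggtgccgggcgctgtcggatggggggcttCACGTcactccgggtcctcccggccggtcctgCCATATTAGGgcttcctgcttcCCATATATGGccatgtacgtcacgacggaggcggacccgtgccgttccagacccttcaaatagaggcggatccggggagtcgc
RBBP6: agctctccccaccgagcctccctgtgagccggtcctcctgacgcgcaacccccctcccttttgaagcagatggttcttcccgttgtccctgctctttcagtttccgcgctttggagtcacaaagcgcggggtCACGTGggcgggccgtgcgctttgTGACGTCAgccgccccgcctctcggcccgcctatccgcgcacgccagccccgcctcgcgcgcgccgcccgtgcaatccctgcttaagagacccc
CHIC2: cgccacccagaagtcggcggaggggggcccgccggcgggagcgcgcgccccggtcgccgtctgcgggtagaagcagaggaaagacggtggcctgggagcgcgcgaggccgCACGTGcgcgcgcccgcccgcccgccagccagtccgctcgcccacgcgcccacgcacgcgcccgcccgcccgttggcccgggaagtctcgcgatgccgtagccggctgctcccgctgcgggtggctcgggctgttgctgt
In EGR1 the CArG boxes span bases 105 to 96 and 83 to 74 before the start, and an ACGTG on the other strand spans bases 137 to 133. A CArG box is found in 1.29% of the 35116 promoter windows, and EGR1 was the only one of the 8 higher genes searched with a match, against 0 of the 6 lower genes searched. RBBP6 holds TGACGTCA at bases 94 to 87 (in 1.85% of all windows, and also in that of ZFP36L1 among the lower genes) and CACGTG at bases 118 to 113 (in 7.26%), and CHIC2 holds CACGTG at bases 140 to 135. TGACTCA, found in 4.95% of windows, occurred in ABL2 among the higher genes and in none of the lower ones. GGAATG (14% of windows) occurred in 0 of 8 higher and 2 of 6 lower genes, ACGTG (21.4%) in 4 of 8 and 0 of 6, and GGGCGG (45%) in 5 of 8 and 3 of 6. A match describes letters in a window and not a bound site.

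CYR61, which encodes the secreted matricellular protein CCN1 and is a target of both serum response factor and YAP/TAZ (ENSG00000142871, chromosome 1, 85580761 to 85583962, plus strand, GRCh38), was next in order of p. Its level in DAOY was 56.5, 34.5 and 39.0 CPM at 0 h and 109, 90.2 and 129 CPM at 2 h. In U87 mg it was 19.9, 25.6 and 22.5 CPM at 0 h and 37.1, 37.0 and 36.6 CPM at 2 h. All 2 h samples lay above the 0 h samples of their line, and the U87 mg values at 2 h were close together. The common log2 change was 1.03 ± 0.16 (SE, 2.04-fold, edgeR adjusted p = 0.119), made up of 1.34 ± 0.19 in DAOY and 0.70 ± 0.20 in U87 mg. Its difference between lines had an unadjusted p of 0.0367, again with an adjusted p of 0.693. At 8 h all samples of both lines were above their 0 h samples, at 161, 241 and 114 CPM in DAOY and 29.3, 39.4 and 55.7 CPM in U87 mg.

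CSRNP1 encodes a nuclear protein of the immediate early class (ENSG00000144655, chromosome 3, 39141855 to 39154562, minus strand, GRCh38). DAOY had 5.37, 10.6 and 10.4 CPM at 0 h and 21.0, 20.5 and 23.2 CPM at 2 h, and the gap between the groups was wider than either group. U87 mg had 15.1, 24.9 and 26.4 CPM at 0 h and 39.5, 31.3 and 29.4 CPM at 2 h, with the groups apart by less. The log2 change was 0.92 ± 0.21 (SE, adjusted p = 0.758 in edgeR), 1.28 ± 0.27 in DAOY and 0.59 ± 0.26 in U87 mg. NR4A2, an orphan nuclear receptor of the same class, came just outside the 10 genes by p and is described after its values were seen. Its level went from 14.6, 14.9 and 7.68 CPM to 29.3, 19.1 and 44.5 CPM in DAOY and from 2.83, 3.08 and 3.13 CPM to 4.05, 4.67 and 4.81 CPM in U87 mg, with no overlap in either line. The common log2 change of NR4A2 was 0.99 ± 0.24 (SE, adjusted p = 0.92, edgeR).

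The other higher genes of the 10 had changes of 0.43 to 0.62 on the log2 scale apart from 1 low-count name. ARID5B, a DNA-binding partner of the histone demethylase PHF2, had 58.8, 58.4 and 63.8 CPM at 0 h and 69.2, 81.5 and 101 CPM at 2 h in DAOY. In U87 mg ARID5B had 63.3, 51.6 and 70.8 CPM and 101, 91.1 and 122 CPM. The groups did not overlap in either line, and the log2 change was 0.62 ± 0.12 (SE, edgeR adjusted p = 0.509). PCF11, a subunit of the cleavage factor that ends transcription at poly(A) sites, had 53.2, 54.2 and 49.97 CPM at 0 h and 64.2, 60.6 and 85.2 CPM at 2 h in DAOY. In U87 mg PCF11 was tight at 0 h (42.2, 42.4 and 43.2 CPM) and stood at 53.8, 66.3 and 75.7 CPM at 2 h. Its log2 change was 0.51 ± 0.11 (SE, adjusted p = 0.758, edgeR), and none of its samples overlapped.

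ABL2, the ARG tyrosine kinase that acts on actin and adhesion, had 217.5, 141.4 and 155.2 CPM at 0 h and 230.3, 217.5 and 269.7 CPM at 2 h in DAOY. The DAOY groups touched, with 2 h replicate 1 only just above 0 h replicate 0. In U87 mg ABL2 had 212, 186 and 192 CPM and 256, 286 and 299.8 CPM, and the change was nearly the same in both lines (0.48 ± 0.16 and 0.51 ± 0.16 on the log2 scale). DCP1A, a cofactor of mRNA decapping, had a log2 change of 0.47 ± 0.11, with DAOY from 36.44, 29.02 and 32.25 CPM to 41.2, 48.3 and 49.6 CPM and U87 mg from 50.9, 37.4 and 39.6 CPM to 58.9, 53.6 and 59.7 CPM. RBBP6, a ubiquitin ligase that also belongs to the mRNA 3′ end machinery, had a log2 change of 0.43 ± 0.10, and its DAOY groups overlapped (111, 89.0 and 96.8 CPM at 0 h, 107, 121 and 131 CPM at 2 h). In U87 mg RBBP6 stood at 95.7, 87.1 and 100.5 CPM and 128, 143 and 156 CPM, without overlap. CHIC2 had a log2 change of 0.54 ± 0.13, from 12.3, 9.51 and 9.93 CPM to 13.9, 12.9 and 16.8 CPM in DAOY and from 23.12, 19.55 and 18.02 CPM to 28.4, 32.7 and 31.6 CPM in U87 mg. All 4 of these genes had the same adjusted p, 0.758, in edgeR. The remaining name, RP11-248G5, joins 2 noncoding genes and rests on few counts, with 0.335, 0 and 0.102 CPM at 0 h and 1.17, 1.66 and 2.62 CPM at 2 h in DAOY and 0 CPM in 5 of 6 U87 mg samples, so its change is one of DAOY.

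Among the 31 genes without overlap, the epigenetic regulators EPC1 and EPC2, which are scaffolds of the NuA4 acetyltransferase complex, and the acetyltransferase EP300 were picked out after their values were seen. The log2 change was 0.39 ± 0.10 for EPC1, 0.42 ± 0.12 for EPC2 and 0.20 ± 0.08 for EP300, and their adjusted p was 1 in edgeR's test. EP300 had 113, 108 and 119.8 CPM at 0 h and 129, 128 and 132 CPM at 2 h in U87 mg, so the groups were parted by a narrow gap. LATS2, the Hippo kinase that inhibits YAP and is itself transcribed by it, was also higher in both lines. It went from 33.5, 29.5 and 28.1 CPM to 40.8, 38.7 and 50.1 CPM in DAOY and from 23.6, 20.1 and 20.3 CPM to 24.5, 26.4 and 31.2 CPM in U87 mg (log2 change 0.43 ± 0.11, SE, edgeR adjusted p = 1).

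**Figure D2:**
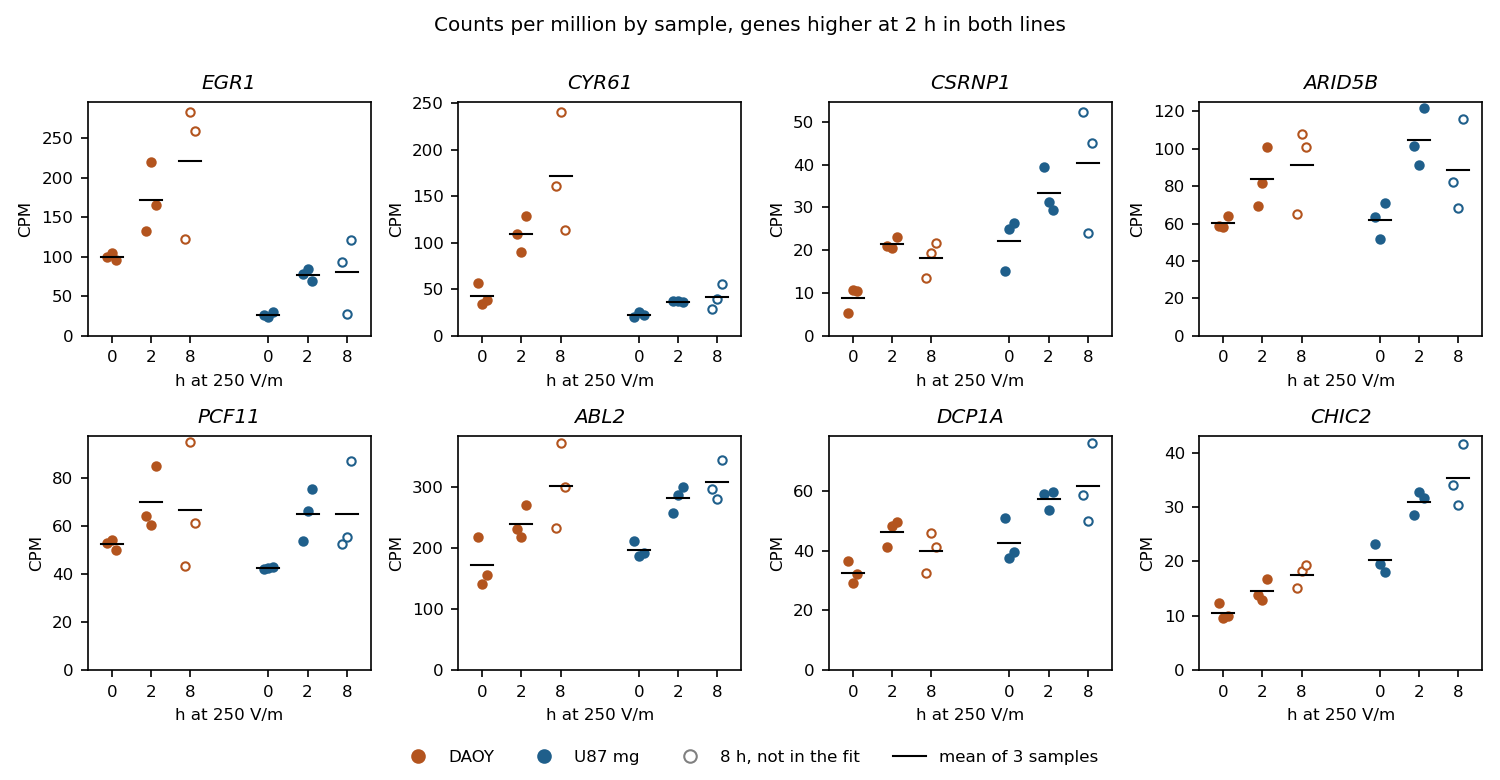
CPM (vertical axis, from 0) of 8 genes by hours at 250 V/m (horizontal axis), DAOY in brown on the left and U87 mg in blue on the right of each panel. Points are single samples, open points the 8 h samples that were not in the fit as reported, and bars the mean of 3 samples. These 8 are those of the 10 named higher genes whose 0 h and 2 h samples do not overlap in either line. Their separation in the plot therefore follows from that choice. Some 8 h points of EGR1 and CSRNP1 in U87 mg fall back among the 0 h points.

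On the lower side, ZFP36L1 had the largest counts of the 10 genes in DAOY and, after NEAT1, the next largest in U87 mg. It encodes an RNA-binding protein that brings AU-rich messages to decay (ENSG00000185650, chromosome 14, 68787660 to 68796253, minus strand, GRCh38), a class that many immediate early messages belong to. Its level in DAOY was 842, 848 and 694 CPM at 0 h and 575, 519.6 and 587 CPM at 2 h. In U87 mg it was 325, 237 and 326 CPM at 0 h and 208, 205 and 217 CPM at 2 h. No samples overlapped, and the change was nearly equal in both lines (-0.50 ± 0.15 in DAOY and -0.49 ± 0.15 in U87 mg). The common log2 change was -0.50 ± 0.10 (SE, 0.708 of the 0 h level, edgeR adjusted p = 0.509). At 8 h its samples were still below all 0 h samples, at 566, 617 and 592 CPM in DAOY and 204, 176 and 166 CPM in U87 mg.

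Genes for C2H2 zinc finger proteins, a large family that binds DNA and often recruits silencing complexes through a KRAB domain, supplied 3 of the lower 10. ZNF623 had 42.4, 33.9 and 37.0 CPM at 0 h and 24.3, 24.5 and 19.8 CPM at 2 h in DAOY, and 43.6, 33.9 and 36.0 CPM and 25.8, 28.2 and 28.6 CPM in U87 mg. Its groups were clearly apart, with a log2 change of -0.59 ± 0.12 (SE, edgeR adjusted p = 0.509). ZNF564 went from 15.5, 8.79 and 12.6 CPM to 7.91, 7.32 and 7.28 CPM in DAOY and from 5.45, 4.66 and 5.32 CPM to 3.06, 2.91 and 3.51 CPM in U87 mg, a log2 change of -0.71 ± 0.17. ZNF230 had a log2 change of -0.63 ± 0.17, but its U87 mg groups overlapped (9.69, 9.81 and 6.25 CPM at 0 h and 5.728, 6.752 and 5.204 CPM at 2 h). WDR5B, a WD-repeat relative of the histone methyltransferase subunit WDR5, went from 15.2, 11.6 and 14.3 CPM to 5.66, 9.27 and 5.46 CPM in DAOY and from 15.2, 15.5 and 11.8 CPM to 11.2, 10.5 and 10.2 CPM in U87 mg. The adjusted p in edgeR's test was 0.758 for ZNF564 and 1 for both ZNF230 and WDR5B. ZNF623, ZNF564 and WDR5B were below all 0 h samples again at 8 h in both lines.

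NEAT1, the nuclear long noncoding RNA that builds paraspeckles (ENSG00000245532, chromosome 11, 65422774 to 65445540, plus strand, GRCh38), was lower by a like amount in both lines (-0.79 ± 0.27 and -0.87 ± 0.26 on the log2 scale). In U87 mg it stood at 534, 659.6 and 474 CPM at 0 h and at 302, 334 and 274 CPM at 2 h, with no overlap. In DAOY the groups overlapped, with 82.8, 111 and 56.6 CPM at 0 h and 29.5, 60.6 and 54.6 CPM at 2 h. The common log2 change was -0.83 ± 0.18 (SE, edgeR adjusted p = 0.758). MALAT1, its neighbour on chromosome 11 and also retained in the nucleus, had -0.43 ± 0.18 (SE, adjusted p = 1), with overlap in both lines. MIR22HG, the host transcript of a microRNA, went the other way at 0.70 ± 0.24 (SE, edgeR adjusted p = 1).

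RP11-442H21 is annotated in GENCODE 29 as DDIT4-AS1, an antisense transcript inside DDIT4 on chromosome 10 (positions 72274915 to 72275980, minus strand, against 72273920 to 72276036, plus strand). It had 3.58, 2.80 and 2.66 CPM at 0 h and 1.76, 1.56 and 1.02 CPM at 2 h in DAOY, and 38.2, 6.90 and 38.7 CPM and 8.30, 3.43 and 3.51 CPM in U87 mg, where 1 of the 0 h samples was low. Whether the counts were made with strand is not given in the sources used here, so reads of both genes cannot be told apart. DDIT4 itself, an inhibitor of mTOR complex 1, went from 123, 81.3 and 168 CPM to 38.9, 42.8 and 41.4 CPM in U87 mg. In DAOY DDIT4 stood at 13.2, 11.2 and 13.8 CPM and 18.7, 8.49 and 10.8 CPM, which overlapped. The U87 mg change of DDIT4 was -1.59 ± 0.28 on the log2 scale, and its difference from DAOY had an unadjusted p of 0.00161 and an edgeR adjusted p of 0.693.

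The other 3 lower genes rest on few counts. C21orf33, a gene with a near-identical copy on chromosome 21 that makes its counts uncertain, had 3.46, 5.75 and 6.14 CPM at 0 h and 1.66, 0.390 and 0.114 CPM at 2 h in DAOY and 1.82, 2.91 and 1.66 CPM and 0.296, 0 and 0.390 CPM in U87 mg (edgeR adjusted p = 0.194). PAPPA-AS2, an antisense transcript, had at most 1.31 CPM in any of the 12 samples. ENSAP2, a processed pseudogene on chromosome 14, was at 0 CPM in all 6 samples at 2 h and in 2 of the 3 DAOY samples at 0 h, so in DAOY 1 library carried its change.

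**Figure D3:**
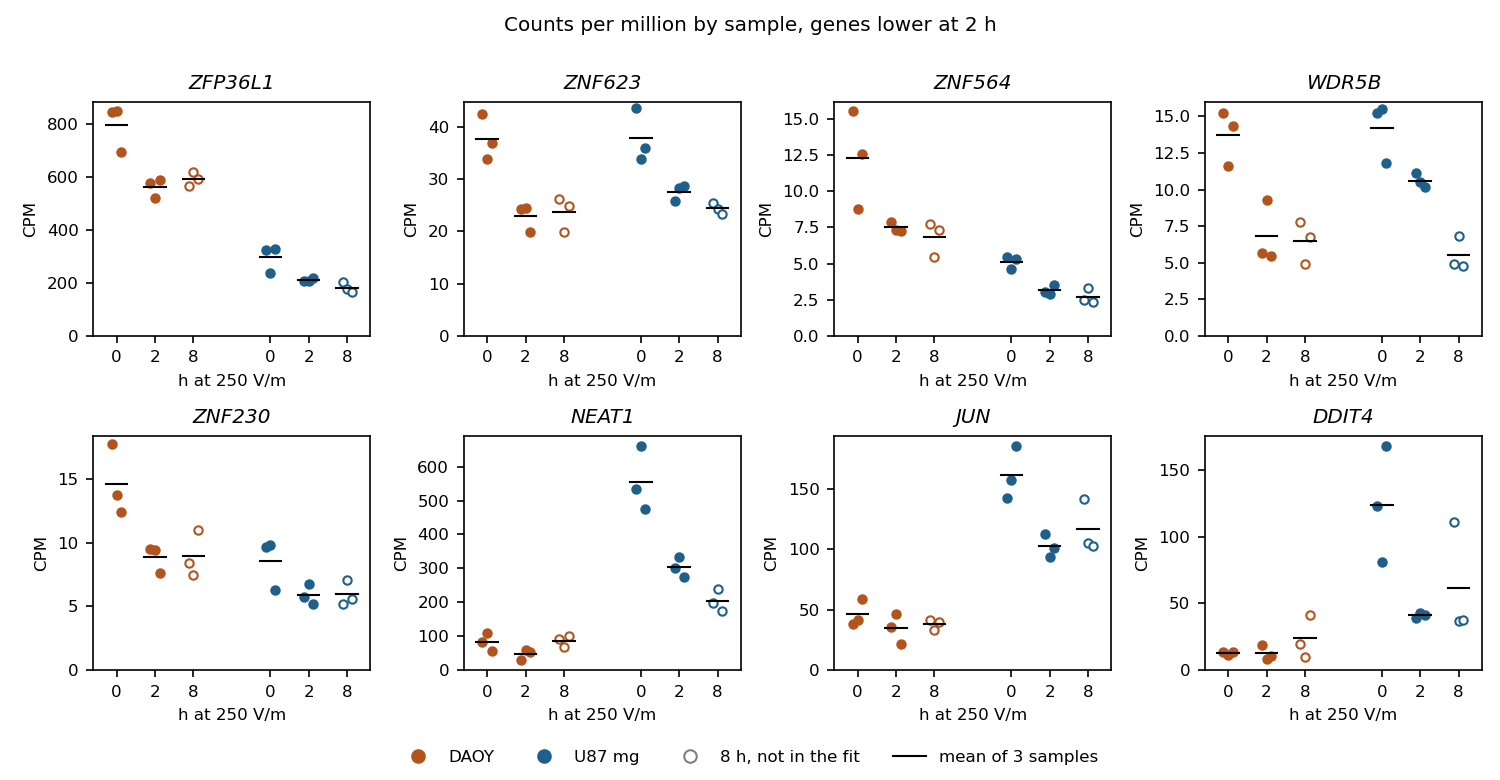
CPM (vertical axis, from 0) by hours at 250 V/m (horizontal axis) for 6 of the genes named as lower at 2 h and for JUN and DDIT4, with colours, open points and bars as in the plot of the higher genes. ZFP36L1, ZNF623, ZNF564 and WDR5B are apart between 0 h and 2 h in both lines, while DDIT4 differs in U87 mg and overlaps in DAOY.

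Of the 29 immediate early transcription factors listed, 28 were tested, and 11 of them were higher in both lines, 1 was lower in both and 16 had opposite signs, beside 17.3% higher and 19.2% lower over all genes. None passed the adjusted threshold, while 5 were higher and 1 lower at an unadjusted p under 0.05, and 3 (EGR1, CSRNP1 and NR4A2) had no overlap on the higher side. Over all genes, 1.02% were higher and 1.48% lower at that p, and 0.194% had no overlap on the higher side and 0.281% on the lower. The median log2 change was 0.23 for both lines together, 0.49 in DAOY and -0.08 in U87 mg. FOS was at 3.58, 10.7 and 6.04 CPM at 0 h and 11.4, 13.3 and 17.1 CPM at 2 h in DAOY without overlap, and at 2.22, 1.66 and 2.53 CPM and 2.57, 4.47 and 2.21 CPM in U87 mg with overlap (0.81 ± 0.27, SE, edgeR adjusted p = 1). FOSB stood at 0.76 ± 0.23 and its U87 mg groups overlapped through 1 sample at 0 h. JUN, the partner of FOS in AP-1, went against them at -0.54 ± 0.17, with 142, 158 and 186 CPM at 0 h and 112, 93.8 and 101 CPM at 2 h in U87 mg. In DAOY the JUN groups overlapped (37.9, 41.3 and 59.0 CPM and 35.9, 46.4 and 21.3 CPM). FOSL1 was higher in DAOY (0.67 ± 0.22) and lower in U87 mg (-0.40 ± 0.21), with an unadjusted p of 0.00358 for the difference and an edgeR adjusted p of 0.693. The members with the largest mean counts were, in the common fit, at 0.05 ± 0.17 for IER3, -0.03 ± 0.09 for FOSL2, 0.21 ± 0.10 for KLF6 and -0.01 ± 0.10 for JUND.

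**Figure D4:**
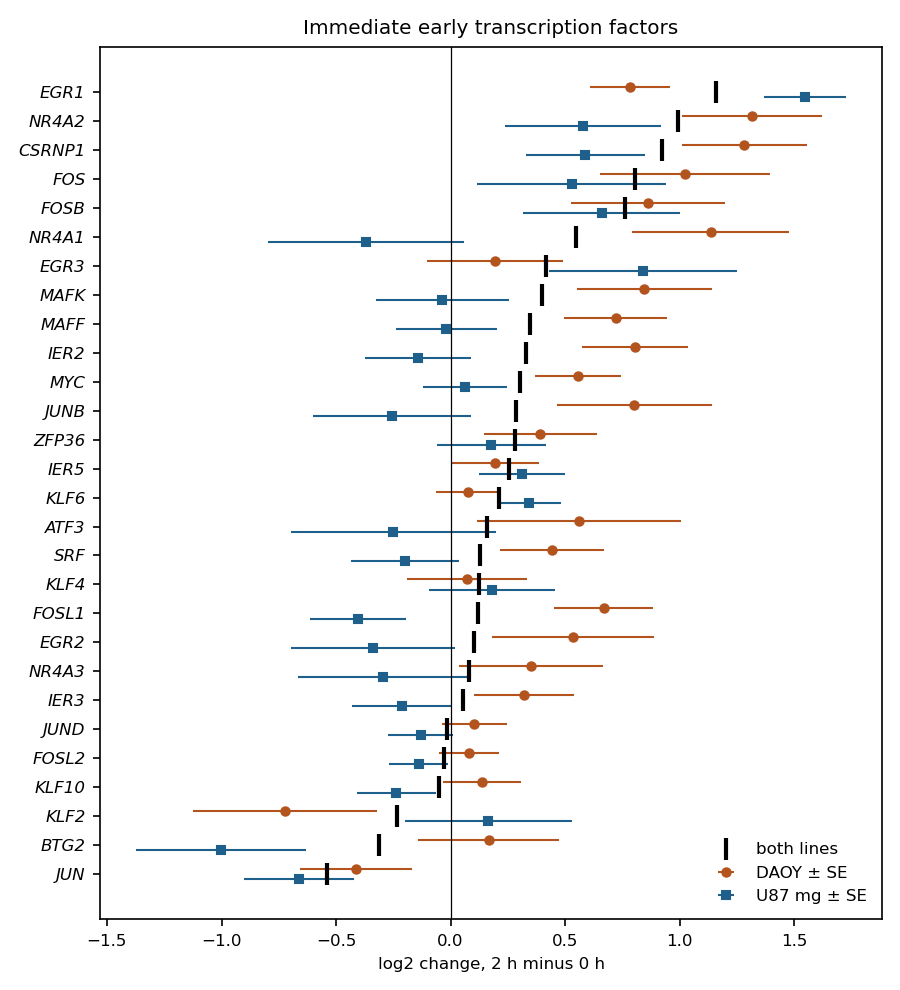
The log2 change from 0 h to 2 h (horizontal axis) of the 28 tested immediate early transcription factors (vertical axis, ordered by the common change), with DAOY as circles and U87 mg as squares, each with its standard error, and the common change as a black bar. EGR1, NR4A2, CSRNP1, FOS and FOSB lie to the right in both lines, JUN to the left in both, and members such as NR4A1, JUNB and FOSL1 have U87 mg on the left and DAOY on the right.

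Genes that feed back on the ERK pathway gave a median of 0.09 (0.15 in DAOY, -0.04 in U87 mg), with 5 of 22 higher in both lines and 3 lower. Over all genes tested, 17.3% were higher and 19.2% lower in both lines. At an unadjusted p under 0.05, 1.02% of all genes were higher and 1.48% lower. These shares stand beside the counts of every list. SPRY4, an inhibitor of receptor tyrosine kinase signalling, was at 0.77 ± 0.19 in DAOY and 0.09 ± 0.18 in U87 mg, its relative SPRY1 was at -0.87 ± 0.36 in the common fit (unadjusted p = 0.0308), and the dual-specificity phosphatases DUSP1 and DUSP6 were at -0.20 ± 0.16 and -0.18 ± 0.22 in the common fit, with p above 0.05. Of 29 targets of YAP/TAZ and serum response factor in the cytoskeleton, 8 were higher and 6 lower in both lines, with a median of -0.0084. CYR61, LATS2 and AMOTL2 (0.54 ± 0.17, a YAP-binding scaffold) had an unadjusted p under 0.05 on the higher side and the smooth muscle actin ACTA2 (-0.67 ± 0.31) on the lower side. The structural members ACTB, ACTG1, MYH9 and FLNA lay between -0.07 and 0.07. The YAP/TAZ targets CTGF and ANKRD1 were at 0.36 ± 0.21 and -0.51 ± 0.52 and the smooth muscle calponin CNN1 at -0.65 ± 0.51, none with an unadjusted p under 0.05.

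The common medians of the remaining lists are small apart from that of the mitosis genes. For 14 of all 23 lists the median changed sign in at least 1 alternative or left-out library. Beside the counts in both lines stand 17.3% higher and 19.2% lower over all genes. Growth factor ligands (25 tested, 8 higher and 6 lower in both lines, median -0.03), growth factor receptors (19 tested, 5 and 3, median 0.03) and TGF-beta and BMP feedback genes (16 tested, 5 and 3, median 0.07) held no member at an unadjusted p under 0.05 but ID1 (-0.89 ± 0.34), an inhibitor of DNA binding downstream of BMP. MET and EGFR, receptors of migratory signals, were at 0.0045 ± 0.11 and 0.06 ± 0.09. NF-kB, cytokine and chemokine genes (23 tested, 8 higher and 2 lower, median 0.02) had wide errors, as in CXCL8 (0.13 ± 0.47). PI3K, AKT and mTOR genes (25 tested, 5 and 3, median -0.04), Notch, Wnt and Hedgehog targets (19 tested, 2 and 6, median -0.04) and G1 cyclins and CDK inhibitors (15 tested, 3 and 3, median -0.02) had common medians of like size. By line, the median of the Notch, Wnt and Hedgehog targets was 0.10 in DAOY and -0.30 in U87 mg.

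The unfolded protein and integrated stress response list (25 tested) had 6 higher and 6 lower in both lines, with a median of 0.08. Of its members, 2 were higher, DNAJB9 (0.48) and PPP1R15A, and 1 lower at an unadjusted p under 0.05, beside 1.02% and 1.48% of all genes. PPP1R15A, which reverses the block of translation, was at 0.91 ± 0.21 in DAOY and 0.09 ± 0.21 in U87 mg, and the chaperones HSPA5 and HSP90B1 were at 0.12 ± 0.18 and 0.11 ± 0.12 in the common fit. Of 19 heat shock proteins, 7 were higher and 1 lower in both lines, beside 17.3% and 19.2% of all genes. Their median was 0.04, and DNAJB1 and DNAJB4 had an unadjusted p under 0.05 (0.29 ± 0.12 and 0.44 ± 0.16). Oxidative stress genes and metallothioneins (21 tested, 4 higher, 3 lower, median -0.0032), hypoxia and glycolysis genes (28 tested, 4 and 4, median 0.08) and p53 targets (21 tested, 1 and 3, median 0.0037) had medians as small. Among hypoxia and glycolysis genes 1 was higher and 1 lower at an unadjusted p under 0.05. Among p53 targets TNFRSF10B (0.26) was higher and XPC (-0.31) lower at that p. Glucocorticoid and FOXO targets (24 tested, 7 and 5, median -0.01) included DDIT4 and IRS2 (0.42 ± 0.19) with unadjusted p under 0.05 and opposite signs.

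Of 18 circadian clock genes, 5 were higher and 2 lower in both lines, with a median of 0.03. The nuclear receptor NR1D2 was at 0.31 ± 0.11 and the repressor BHLHE40 at -0.49 ± 0.17, the latter with -0.07 ± 0.18 in DAOY and -0.89 ± 0.18 in U87 mg. CLK kinases and SR splicing factors (23 tested) had 9 higher and 3 lower in both lines, beside 17.3% and 19.2% of all genes. Their median was 0.04. CLK1, a kinase of SR proteins, led them at 0.55 ± 0.13 (SE, edgeR adjusted p = 0.758), with 57.8, 61.4 and 59.7 CPM at 0 h and 78.4, 88.1 and 114 CPM at 2 h in DAOY and 74.0, 72.4 and 68.2 CPM and 70.1, 105 and 117 CPM in U87 mg, where 1 sample at 2 h stayed among those at 0 h. Its relative CLK2 was at -0.40 ± 0.16. The nuclear long noncoding RNAs and small RNA host genes (22 tested) had 6 higher and 4 lower, with a median of 0.03.

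Mitosis genes had a median of -0.33. That value came from DAOY, where it was -0.69, while in U87 mg it was 0.09. In both lines 8 of 20 members were lower and 0 higher, beside 19.2% lower and 17.3% higher over all genes. None of the 20 had an unadjusted p under 0.05. MKI67, a marker of cycling cells, was at -0.89 ± 0.44 in DAOY and -0.13 ± 0.44 in U87 mg. The median was -0.0536 without DAOY 0 h replicate 1, so it rested on that library. Cholesterol and fatty acid synthesis genes (24 tested) had 1 higher and 5 lower, with a median of -0.04. Among motility, adhesion and matrix genes, 38 were tested, 2 were higher and 5 lower in both lines and 31 had opposite signs. Over all genes, 10163 of 16003 had opposite signs. The median of the motility list was 0.0037. The transcription factor SNAI2, at -0.31 ± 0.11, was the one member with an unadjusted p under 0.05. FN1, CD44 and ITGB1 were at -0.09 ± 0.17, -0.01 ± 0.16 and 0.08 ± 0.14. Ion channels and pumps (26 tested, 6 higher and 1 lower, median 0.06) held no member at an unadjusted p under 0.05.

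**Figure D5:**
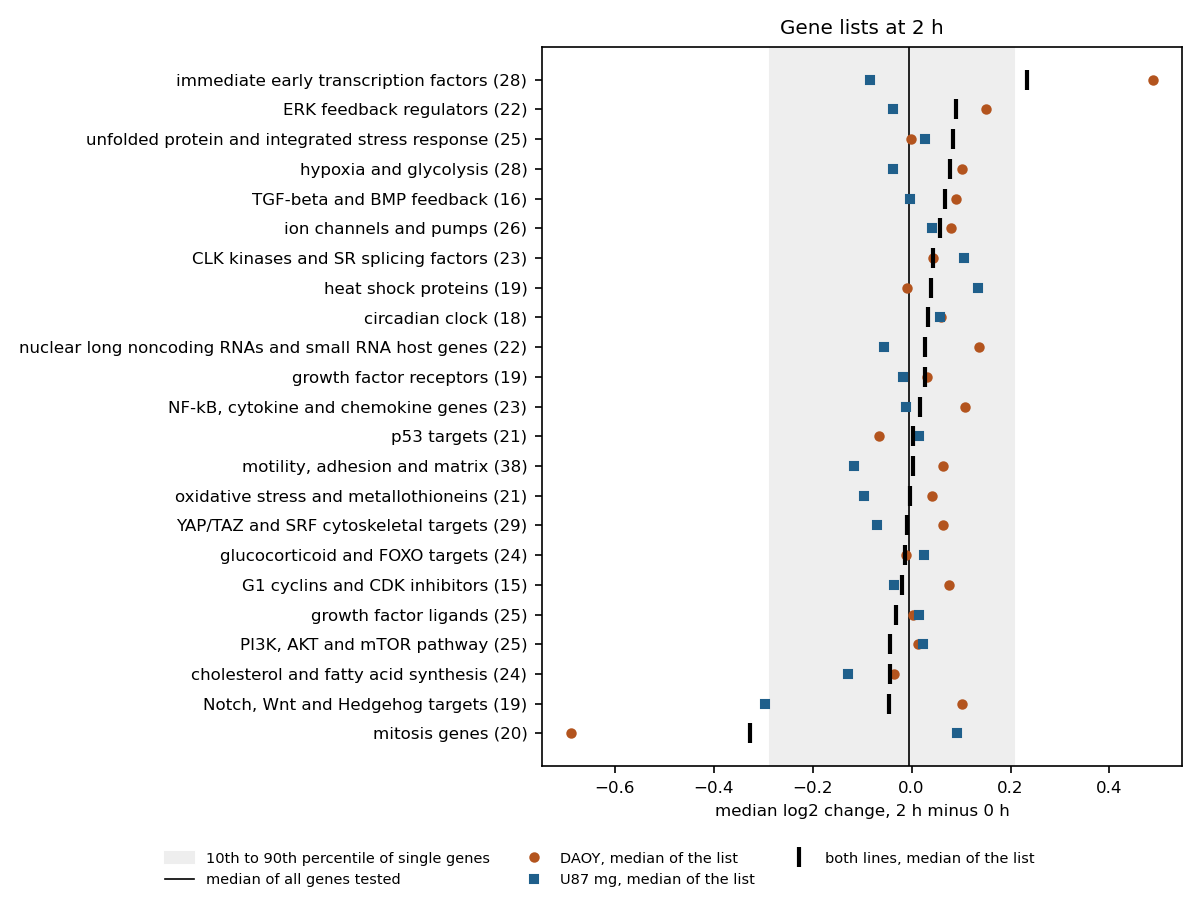
Median log2 change from 0 h to 2 h (horizontal axis) of 23 gene lists (vertical axis, number of genes tested in brackets) in DAOY (circles), U87 mg (squares) and both lines together (black bars), with the 10th to 90th percentile of single genes shaded and the median of all genes as a line. The shading describes single genes and is no yardstick for a median over a list. The immediate early list has the highest common median and the mitosis list the lowest, and in both the DAOY circle lies farther from 0 than the U87 mg square.

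By 8 h the named genes had not all kept their level. Of the 10 higher genes, 6 in DAOY (EGR1, CYR61, ARID5B, CSRNP1, ABL2 and CHIC2) and 5 in U87 mg (CYR61, PCF11, ABL2, RBBP6 and CHIC2) had all 8 h samples above all 0 h samples. Of the 10 lower genes, 7 in DAOY and 8 in U87 mg had all 8 h samples below all 0 h samples. None of these 20 genes had all 8 h samples on the other side of all 0 h samples, although RP11-442H21 in DAOY had 2 of 3 samples at 8 h (4.62 and 5.87 CPM) above every 0 h sample. These 8 h comparisons use the same 0 h samples as the choice of the genes and were not tested. The 8 h levels were scaled with all 18 samples and the 0 h levels with the 12 compared, so narrow gaps can depend on the scaling. The share of all genes whose 8 h samples lie apart from their 0 h samples was not computed. The counts therefore cannot be read as particular to the named genes.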

How the data were processed

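RNA from 3 pooled channels per sample was sequenced after poly(A) selection and a stranded library kit. Per the labels and the study's methods, reads were trimmed with the FastQC Toolkit 2.0.0 (minimum length 32), assigned with Kallisto 0.43.0 to the GENCODE 24 transcripts (GRCh38.p5) and compared with Sleuth 0.28.1 in R 3.2.1. The authors deposited 1 table that lists, for every transcript in every sample, its estimated count and its TPM, beside p-values, q-values and log2 fold changes of their own comparisons, none of which was used. The 3 samples of each group had been chosen by RNA quality from up to 4 prepared. Samples are numbered as in their titles, and the study calls them biological replicates, without saying what was separate between them beyond the pooled channels, so p-values measure the spread between these samples.

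Estimated counts of 145326 transcripts were summed by gene name and rounded. Names on several chromosomes (18 names, at most 0.00232% of counts) were left out. The 2677 names that cover several gene identifiers are sums over them. The 12 samples at 0 h and 2 h were filtered with filterByExpr over the 4 groups, scaled by TMM and fitted with edgeR 4.0.16 (glmQLFit and glmQLFTest, R 4.3.3) with cell line and time as terms. The line by time interaction was tested with the same counts. Standard errors are the log2 change divided by the square root of F. CPM values are scaled by TMM, those at 8 h in a scaling of all 18 samples. Alternatives were DESeq2 1.42.0 and its size factors, no filter or a minimum of 10 counts in each of the 12 samples, all 18 samples, a replicate block, robust dispersion, limma 3.58.1 with voom or on log2(TPM + 1) and log2(TPM + 0.1), single transcripts, each sample left out and, chosen after seeing the data, sums by gene identifier. The fit was checked on simulated counts drawn independently for each sample. That check cannot show how the fit behaves where libraries share deviations. Positions and gene types came from GENCODE 29, matched by transcript identifier (99.2% of transcripts). Python 3.11.15, numpy 2.4.6, pandas 2.3.3 and matplotlib 3.10.9 were used for tables and plots.

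The members and the 23 gene lists were chosen with earlier results of these data known. Named were the 10 genes of smallest p in each direction with the same sign in both lines, since fewer than 10 passed, and for the lists up to 4 members of the largest mean count. Other genes named, among them list members at an unadjusted p under 0.05, were picked after their values were seen.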

Additional observations from a re-analysis of the deposited data

How the results depend on the processing

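The count of genes called for the common 2 h change was 0 in the fit as reported and moved to 9 with DESeq2 (4 higher, 5 lower, all among the 20 named genes) and to 18 without a filter on low counts (6 higher, 12 lower). With a 2-fold change demanded as well, it moved to 4 with DESeq2 and to 16 without the filter, and the difference between lines gave 1 and 6 genes in these settings. It stayed at 0 with DESeq2 size factors in edgeR, at least 10 counts in every sample, all 18 samples, robust dispersion, limma with voom, both TPM scales, transcripts and sums by gene identifier. Leaving out 1 library gave 0 to 2 genes, 0 to 2 genes with the 2-fold demand and 0 for the difference between lines. The 2 genes, EGR1 and C21orf33, were called without DAOY 2 h replicate 0. Without DAOY 0 h replicate 0, 1153 genes (7.02%) had an unadjusted p under 0.05, against 401 with it, and 0 were called. The cause of these shifts was not tested, apart from the larger number of genes, 30772, tested without the filter. Over all alternatives and left-out libraries, the 20 named genes kept their sign in 453 of 453 fits and passed the threshold in 19 of them. They had been chosen by p and equal sign in these same samples, so the kept signs say little about how firm their changes are. EGR1 ranged from 1.07 to 1.28 in log2 change, with an adjusted p from 6.2e-07 with DESeq2 to 0.732 with the replicate block. The list medians differed from the reported ones by less than the spread between samples in 503 of 506 fits, a wide margin, since the medians of 14 of 23 lists changed sign in at least 1 setting (that of the YAP/TAZ list in 11, those of the growth factor ligands, oxidative stress and p53 lists in 9 each). With 1 library left out, the NF-kB median moved from 0.02 to -0.13 (DAOY 2 h replicate 0) or 0.25 (DAOY 0 h replicate 0), and that of oxidative stress from -0.0032 to 0.21 (DAOY 0 h replicate 2).

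With the replicate number as a block, edgeR's quasi-likelihood test called 0 genes, 0 with a 2-fold change and 0 for the difference between lines, and 298 genes had an unadjusted p under 0.05. The numbers were not taken as pairs, because same-numbered samples at 0 h and 2 h deviated from their group means with correlations between -0.28 and 0.25 across genes, and 1 of 6 samples at 0 h correlated best with its own number. In DAOY, 0 h replicates 0, 1 and 2 correlated best with 2 h replicates 2, 0 and 1 (0.418, 0.481 and 0.580). The other DAOY pairs of unlike number lay between -0.35 and -0.20, and those of U87 mg between -0.28 and 0.28. A structure shared between such samples was not modelled or tested.

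Depth limits what low genes can show. RP11-248G5 was at 0 CPM in 6 of 12 samples and ENSAP2 in 8, so their fitted changes depend on the prior count. With 3 samples per group and a common biological coefficient of variation of 0.237, no gene reached the adjusted threshold in the fit as reported, EGR1, CYR61 and C21orf33 included.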

Other observations

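Genes with a ZNF symbol, most of which encode C2H2 zinc finger proteins, were looked at together after 3 of them had appeared among the lower genes, so this is a description of the same data and no test was made. Of 495 such genes, 166 (33.5%) were lower at 2 h in both lines and 58 (11.7%) higher in both, beside 18.7% lower and 17.5% higher among the 15508 other genes tested. In 11 of them (2.22%, against 0.219% of the other genes) all 2 h samples lay below all 0 h samples in both lines, and in 0 of them above. Among those 11, ZNF780A had a log2 change of -0.50 ± 0.14, ZNF792 of -0.72 ± 0.21 and ZNF445 of -0.36 ± 0.12 (SE, edgeR, adjusted p = 1 for each). ZNF347, ZNF470, ZNF626 and ZNF793, also among the 11, were at or below 0.998 CPM in all U87 mg samples at 0 h and 2 h. In that line their groups are parted by few counts. The median log2 change was -0.12, with -0.17 in DAOY and -0.022 in U87 mg. For the other genes it was -0.0042, with 0.0063 in DAOY and -0.015 in U87 mg, so the ZNF median stood apart mainly in DAOY.

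The size of that median depended on the scale. It lay between -0.14 and -0.10 when single libraries were left out and between -0.14 and -0.05 under the 10 alternatives, the smallest sizes being those on the TPM scales. Taken per sample from the 0 h mean of its line, the median of the ZNF genes was -0.25, -0.11 and -0.14 in the DAOY samples at 2 h, and 0.14, -0.07 and -0.02 in the DAOY samples at 0 h, where 0.14 belongs to replicate 0, the library farthest from its group. In U87 mg it was -0.02, -0.01 and -0.02 at 2 h and 0.08, -0.04 and -0.0068 at 0 h, which overlap. Members of this family can be near copies of each other, among which the counting could split reads.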
